A study of Mus musculus with 60 samples.

Results

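Integrins are the receptors by which a cell grips the matrix around it and other cells. 9 integrin subunit genes were followed in mouse microglia: the beta subunits Itgb1, Itgb5 and Itgb7, and the alpha subunits Itgav, Itga6, Itga9, Itga5, Itga4 and Itgal. They were chosen by name, as the listed subunits other than Itgam and Itgax, and are 9 of the 22869 gene symbols counted. Microglia are the resident immune cells of the brain. All libraries came from C57BL/6N animals. Sex was read from the sample titles: 3 libraries were female and 4 male at E18 (embryonic), 4 of each at P4 (postnatal) and 10 of each at P14. At P60 there were 7 female and 5 male libraries after saline, and 6 female and 7 male after LPS (lipopolysaccharide), a molecule of the bacterial surface that immune cells sense through Toll-like receptors. The labels give neither the LPS dose nor how long after it the cells were taken.

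An integrin is 1 alpha and 1 beta subunit held together, and the pair decides which ligand is bound. Itgb1 pairs with many alpha subunits, among them Itga4, Itga5, Itga6 and Itga9, and gives receptors for fibronectin, laminin, tenascin and the endothelial molecule Vcam1. Itgb5 pairs with Itgav in a vitronectin receptor, Itgb7 pairs with Itga4 or Itgae, and Itgal pairs with the leukocyte subunit Itgb2 to bind Icam1. Talin and kindlin proteins bind the tails of beta subunits inside the cell and switch the receptor on. In microglia integrins take part in migration and in surveying the tissue. Some integrins that hold Itgav can release active transforming growth factor beta.

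Total counts per library ran from 802016 to 3497454. The summed level of 13 microglia markers ran from 3642 to 6817 CPM (counts scaled to 1e6 per library) at E18 and from 24387 to 50101 CPM at P60 after saline. Markers of other cells were present too: 9 neuron markers summed to a median of 1816 CPM at E18 and 139.7 CPM at P4. In 2 libraries at E18 and 1 at P60 after saline Ttr, a gene of the choroid plexus, made up more than 10% of the counts. In 6 libraries, 3 at P4 and 3 titled male after LPS, 10 neutrophil markers summed to over 2000 CPM, a limit set after seeing the data. For 10 libraries the title gave another sex than the sex characteristic did. The sample descriptions hold dates, and 0 of 17 were shared by 2 stages or treatments, so neither can be told apart from that date. The labels do not say that libraries came from separate animals, so p-values measure only the spread between libraries. In bulk RNA, fewer cells of a type and less RNA per cell cannot be told apart.

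Levels over the 4 stages differed by subunit. Itgb5, Itgav, Itga6 and Itga9 rose from E18 and had their highest medians in the saline libraries of P60. Itga4, Itgal and Itgb1 had theirs at P4. Itga5 had its lowest median at P60. Itgb7 was low throughout.

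**Figure D1:**
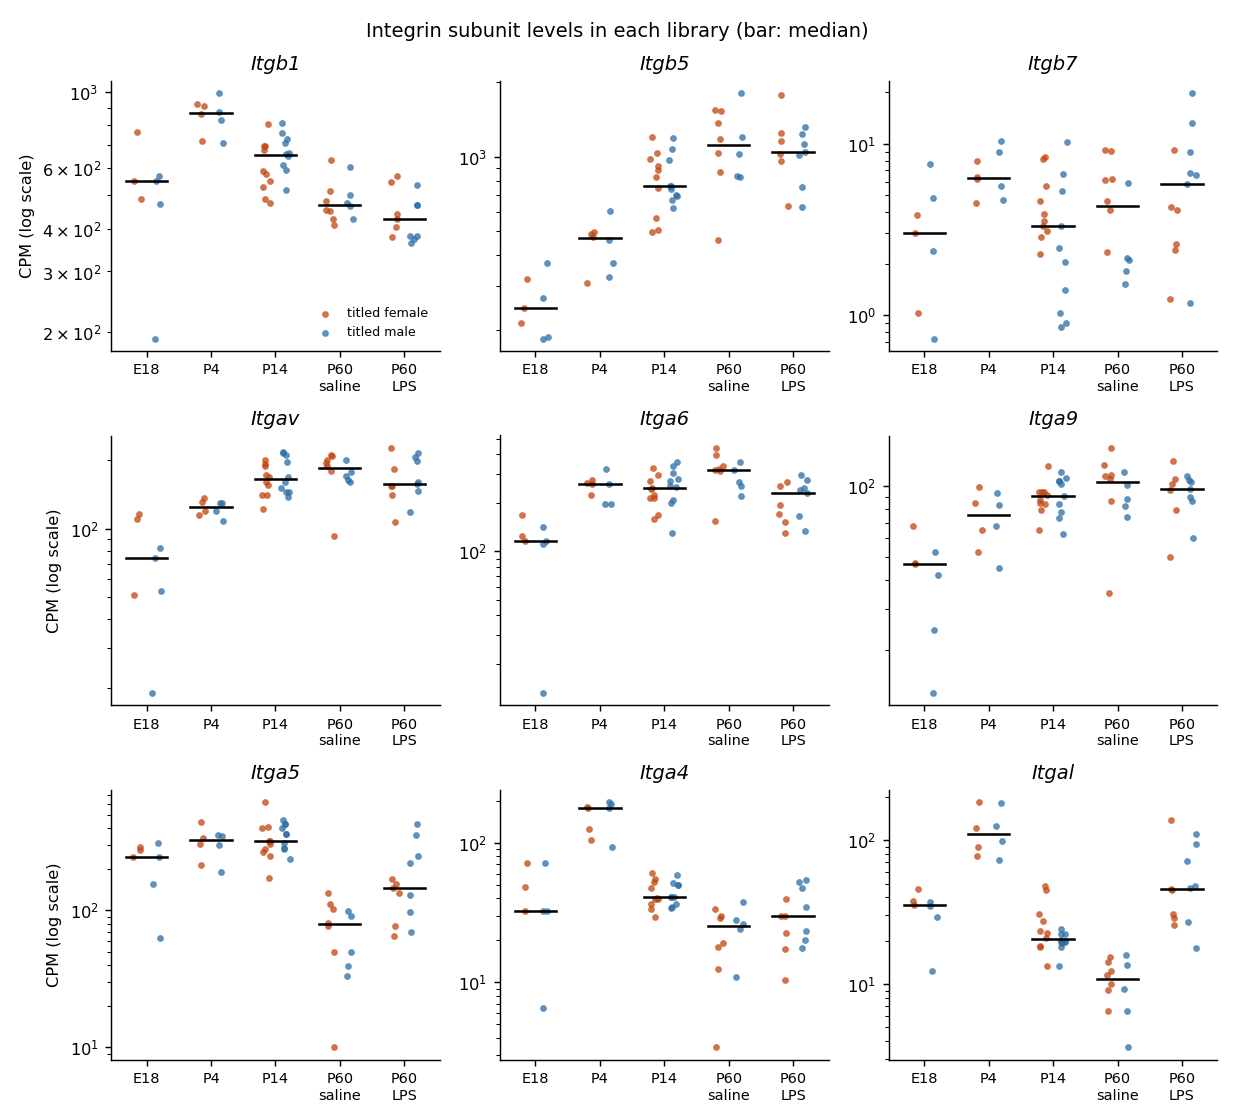
CPM on log axes of each of the 9 subunits in the 60 libraries, by condition, with libraries titled female in orange and male in blue and the condition's median as a bar. Itgb5 climbs from a median of 245 CPM at E18 to 1113 CPM at P60 after saline, Itga4 peaks at 177 CPM at P4, and Itga5 drops from 319.8 CPM at P14 to 79.2 CPM at P60.

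Promoter sequence is shown for the pair that moved furthest apart after P14, Itga5 and Itgb5. The stretches are the 250 bases before each gene's annotated start, from RefSeq on GRCm38.p6, printed 5′ to 3′ on the gene's strand. That is not the assembly of the counts, mm9. Capitals mark matches, on either strand, to GGAA (or TTCC), the core letters read by ETS family factors such as the microglial regulator PU.1, and to GGGCGG (or CCGCCC), the GC box read by Sp1. No match shared a base with another in these 2 stretches. Itga5 is at chr15:103366792-103367041 on the minus strand, and Itgb5 at chr16:33829415-33829664 on the plus strand.
Itga5: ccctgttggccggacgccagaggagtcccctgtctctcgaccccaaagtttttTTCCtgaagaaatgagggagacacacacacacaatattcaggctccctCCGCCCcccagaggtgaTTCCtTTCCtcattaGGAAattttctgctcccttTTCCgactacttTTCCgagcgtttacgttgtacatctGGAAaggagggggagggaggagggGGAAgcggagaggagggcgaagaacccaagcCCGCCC
Itgb5: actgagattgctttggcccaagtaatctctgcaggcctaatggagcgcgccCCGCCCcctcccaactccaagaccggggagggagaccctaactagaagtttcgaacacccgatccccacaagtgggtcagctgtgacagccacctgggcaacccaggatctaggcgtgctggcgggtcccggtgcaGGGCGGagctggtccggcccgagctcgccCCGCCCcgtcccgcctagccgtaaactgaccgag
The Itga5 stretch held 8 matches to GGAA and 2 to GGGCGG, and its GC content was 55.6%. The Itgb5 stretch held 0 matches to GGAA and 3 to GGGCGG, with a GC content of 65.2%. Of 32851 promoters of the same length, 93.4% held at least 1 match to GGAA and 1.45% held 8 or more, and 8.47% held 3 or more to GGGCGG. The matches are letters in a window and not measured binding. Promoters of 7 of the 9 subunits matched the table by symbol. Besides these 2, matches to GGAA numbered 4 for Itgav and Itgb1, 2 for Itga9 and 1 for Itga4 and Itgb7. Those to GGGCGG numbered 1 for Itga4 and Itgb1 and 0 for Itgav, Itga9 and Itgb7. A link between matches and course was not tested.

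Itgb5 rose at each of the 3 steps from E18 to P60. It lay between 184 and 374 CPM at E18 (median 245), 309 and 604 at P4 (468), 495 and 1201 at P14 (762) and 461 and 1808 at P60 after saline (1113). Every library of P60 after saline was above every library of E18, which held for 19.3% of the 13853 genes tested in this pair, in either direction. Neighbouring stages overlapped. The log2 change was 0.88 ± 0.24 (SE) from E18 to P4 (edgeR adjusted p = 0.00268), 1.19 ± 0.20 from P4 to P14 (7.23e-06) and 0.46 ± 0.17 from P14 to P60 (0.0228). Across E18 to P60 it was 2.53 ± 0.25 (edgeR adjusted p = 2.92e-12), from 257 ± 70.8 CPM (SD, n = 7) to 1142 ± 378 (n = 12). The last step rested on single dates and libraries. The P14 libraries differed by date, with medians of 762, 647 and 1057 CPM, and without the 8 dated 2-28-14 the change from P14 to P60 was 0.22 (edgeR adjusted p = 0.311). Without male saline library 2, the highest of P60 at 1808 CPM, it was 0.32 (edgeR adjusted p = 0.110).

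Itgb1, the common partner, followed another course. Its range was 191 to 766 CPM at E18 (median 549.9), 711 to 991 at P4 (870.4), 475 to 813 at P14 (657) and 411 to 635 at P60 after saline (469.7). P4 stood highest, and its range met that of E18 only in a single E18 library at 766 CPM. It rose by 0.83 ± 0.13 from E18 to P4 on the log2 scale (edgeR adjusted p = 1.23e-06) and fell by 0.39 ± 0.09 from P14 to P60 (edgeR adjusted p = 5.6e-04). Between P4 and P14 the change was -0.14 ± 0.10 (edgeR adjusted p = 0.294). This fall passed with other scalings. It was -0.42 (edgeR adjusted p = 0.00404) with library totals alone and -0.25 (edgeR adjusted p = 0.0398) with DESeq2 size factors. DESeq2 itself gave -0.25 (DESeq2 adjusted p = 0.0176). Across E18 to P60 its direction depended on the scaling: 0.30 ± 0.12 (edgeR adjusted p = 0.0246), against -0.09 (0.576) with library totals.

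Itgb7, the mucosal homing subunit, was near the limit of detection with 514 counts over all 60 libraries. It ran from 0.730 to 7.61 CPM at E18 (median 3.01), 4.54 to 10.4 at P4 (6.34), 0.850 to 10.2 at P14 (3.32) and 1.51 to 9.25 at P60 after saline (4.37), and all these ranges overlapped. It rose by 1.15 ± 0.39 on the log2 scale from E18 to P4 (edgeR adjusted p = 0.0125). Without the 3 P4 libraries of high neutrophil markers this was 0.73 (edgeR adjusted p = 0.199), and without female E18 library 3 it was 0.89 (0.0726). The later steps were -0.54 ± 0.30 and 0.00 ± 0.40, neither of which passed. The step from P4 to P14 passed at -0.94 (edgeR adjusted p = 0.0105) without the P14 libraries dated 2-28-14 and at -0.82 (0.0283) with library totals only.

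Itgav, the alpha subunit that Itgb5 binds, rose early and then levelled. Its CPM ran from 19.0 to 116 at E18 (median 74.9), 108 to 136 at P4 (125), 123 to 219 at P14 (165) and 93.5 to 211 at P60 after saline (185). Libraries of P4 lay in a narrow band that met only the top of E18. The log2 change was 0.88 ± 0.18 from E18 to P4 (edgeR adjusted p = 6.49e-05), 0.75 ± 0.14 from P4 to P14 (3.7e-05) and 0.06 ± 0.12 from P14 to P60 (0.73).

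Itga6, which makes laminin receptors, rose from E18 to P4, and its change from E18 to P60 was 1.85 ± 0.24 on the log2 scale (edgeR adjusted p = 4.5e-09). E18 libraries ran from 13.1 to 167 CPM (median 116) and P4 libraries from 196 to 324 (260.5), with no overlap, which held for 13.7% of genes. The rise to P4 was 1.29 ± 0.25 (edgeR adjusted p = 3.38e-05). P14 (130.3 to 359 CPM, median 249) and P60 after saline (155 to 439 CPM, median 321) overlapped P4 and each other, and neither of the later steps, both positive, passed (0.29 ± 0.19 and 0.27 ± 0.17). Without the P14 libraries dated 2-28-14 the step from P4 to P14 passed at 0.53 (edgeR adjusted p = 0.0253). The step from P14 to P60 reached 0.38 (edgeR adjusted p = 0.0151) without the libraries of high Ttr and 0.56 (0.00808) without the P14 libraries dated 3-14-14.

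Itga9, whose pair with Itgb1 binds tenascin C and osteopontin, climbed in smaller steps. Medians were 46.7 CPM at E18 (13.1 to 67.4), 75.2 at P4 (45.0 to 99.0), 90.9 at P14 (62.8 to 122) and 104 at P60 after saline (34.9 to 146), and all neighbouring ranges overlapped. It rose by 0.92 ± 0.22 on the log2 scale from E18 to P4 (edgeR adjusted p = 6.19e-04) and by 0.61 ± 0.18 to P14 (0.0048), and stood at 0.07 ± 0.15 from P14 to P60. The step to P14 was 0.31 (edgeR adjusted p = 0.131) with library totals alone and 0.41 (0.0795) without the P14 libraries dated 3-14-14. These values are of the row the table marks, a transcript of 1935 bases, while an unmarked transcript of 7020 bases had more counts (12264 against 9129) and means of 57.6, 96.4, 124 and 129 CPM over the same 4 stages.

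Itga5, the fibronectin receptor subunit, fell from P14 to P60. Its CPM ran from 62.8 to 309.9 at E18 (median 247), 189.6 to 439.98 at P4 (324), 171 to 616 at P14 (319.8) and 9.97 to 134 at P60 after saline (79.2). Every library of P60 after saline lay below every one of P14, which held for 2.34% of genes in either direction. It fell by 2.24 ± 0.22 on the log2 scale at that step (edgeR adjusted p = 5.58e-11), from 344 ± 98.0 CPM (SD, n = 20) to 73.3 ± 36.8 (n = 12). The earlier steps, both positive, did not pass, at 0.57 ± 0.28 from E18 to P4 (edgeR adjusted p = 0.0882) and 0.43 ± 0.23 from P4 to P14 (0.127). With the replicate number as a block they were 0.64 (edgeR adjusted p = 0.0262) and 0.81 (0.00475). That block joins libraries of the same number across stages, although libraries of different stages shared no date.

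Itga4, the alpha subunit that binds Vcam1, peaked at P4. E18 libraries ran from 6.57 to 71.3 CPM (median 32.5), P4 from 92.9 to 195 (177), P14 from 29.5 to 60.8 (40.9) and P60 after saline from 3.42 to 37.7 (25.3). P4 stood apart from both E18 and P14 with no overlap. This held for 13.7% of genes between E18 and P4 and for 6.11% between P4 and P14. The rise was 1.99 ± 0.26 on the log2 scale (edgeR adjusted p = 3.01e-08) and the falls after it were -1.54 ± 0.19 (7.02e-09) and -0.94 ± 0.19 (1.09e-04).

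Itgal, the alpha subunit that leukocytes use to bind Icam1, peaked at the same stage. Its CPM ran from 12.4 to 45.5 at E18 (median 35.4), 73.2 to 183 at P4 (109.8), 13.3 to 48.1 at P14 (20.5) and 3.63 to 15.9 at P60 after saline (10.8). P4 again overlapped neither neighbour. Of all genes tested, 13.7% had no overlap between E18 and P4 and 6.11% had none between P4 and P14. The log2 change was 1.93 ± 0.25 from E18 to P4 (edgeR adjusted p = 2.57e-08), -2.07 ± 0.18 from P4 to P14 (2.41e-12) and -1.09 ± 0.20 from P14 to P60 (1.94e-05). Itgal is made by neutrophils, monocytes and lymphocytes as well as microglia. At P4 the 10 neutrophil markers summed to a median of 1360 CPM (323 to 8657), against 323 at E18 and 248 at P14, and 8 of 10 rose and then 9 of 10 fell. Of 6 monocyte markers 3 rose at P4 and 5 fell at P14. Without the 3 P4 libraries of high neutrophil markers Itgal was at 1.56 from E18 to P4 (edgeR adjusted p = 8.49e-06) and at -1.83 from P4 to P14 (5.83e-09), and Itga4 at 1.74 (7.27e-06) and -1.44 (4.35e-06). The part of neutrophils and monocytes in these changes was not tested.

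Counted together, 8 of the 9 subunits rose from E18 to P4 and 0 fell, where 48.3% of all genes were called, 25.5% higher and 22.7% lower. The median log2 change of the 9 was 0.92, against 0.03 for all genes tested. All 13 microglia markers rose at this step and all 8 neuron markers tested fell, and their part in the result was not tested. The male E18 library 4, with 24.8% of its counts in Ttr, was lowest of the 7 E18 libraries for 8 of the 9 subunits (Itgb5 was the exception). Without the libraries of high Ttr all 8 rises were called, with Itga6 at 1.01 and Itgav at 0.62. From P4 to P14, 3 rose and 2 fell, with 41.5% of all genes called, 20.6% higher and 20.8% lower. From P14 to P60, 1 rose and 4 fell, with 44.1% called, 18.5% higher and 25.7% lower. At that step 2 of 14 endothelial and pericyte markers rose and 7 fell. Of 8 border macrophage markers tested 0 rose and 5 fell, and of 13 microglia markers 9 rose and 0 fell. The part of these cells in the falls of Itga5, Itgb1, Itga4 and Itgal was not tested. Across E18 to P60, 5 subunits rose and 2 fell, with 66.3% called, 31.4% higher and 34.8% lower. DESeq2 size factors in edgeR shifted the all-gene median from 0.03 to -0.10 from E18 to P4, from -0.01 to -0.12 from P4 to P14 and from -0.08 to -0.26 from E18 to P60. Of the calls named above only that of Itgb1 across E18 to P60 was lost with them (0.13, edgeR adjusted p = 0.315). Itgb1 from P4 to P14 (-0.25, edgeR adjusted p = 0.0398) and Itga4 across E18 to P60 (-0.67, 0.0108) passed with them.

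**Figure D2:**
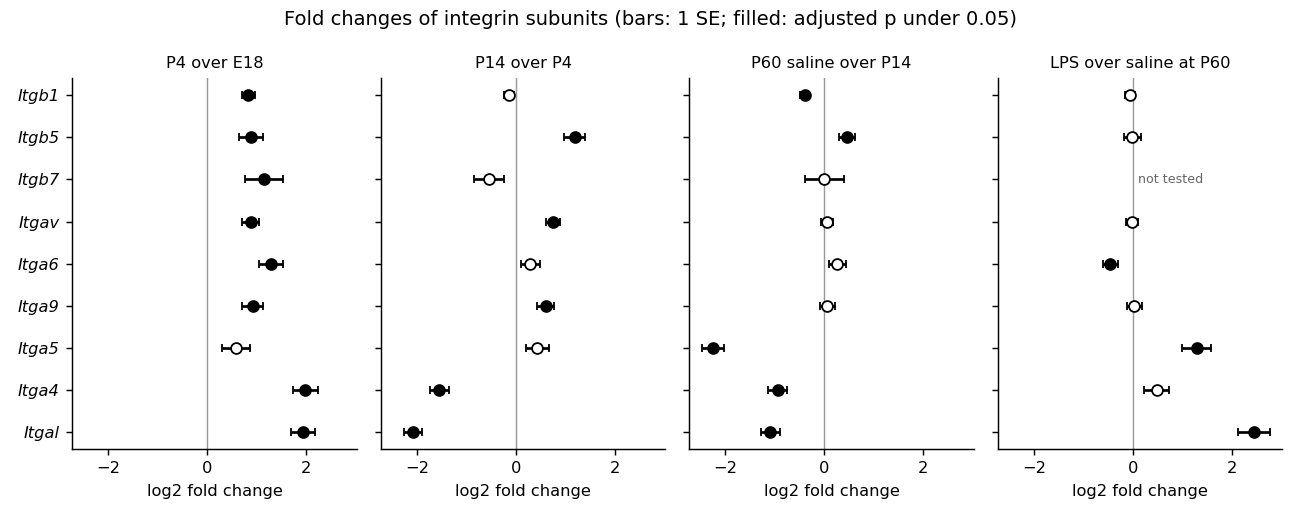
Log2 fold changes of the 9 subunits in 4 comparisons, with bars of 1 SE and filled points where the edgeR adjusted p was under 0.05. Itga4 and Itgal rise by 1.99 and 1.93 to P4 and fall after it, Itga5 falls by 2.24 at P60, and Itgal rises by 2.45 with LPS.

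Set per length of transcript, the make-up of the 9 subunits turned over. Their summed level was 334 ± 95.5 CPM per kilobase at E18 (SD, n = 7), 584 ± 64.3 at P4, 635 ± 59.5 at P14 and 646 ± 149 at P60 after saline. Itgb1 held 39.8% ± 3.80 of that sum at E18 and 20.9% ± 5.95 at P60, while Itgb5 went from 25.2% ± 9.20 to 52.7% ± 6.53. Itga5 held 12.4% ± 3.40 at P14 and 2.53% ± 1.27 at P60. By mean share Itgb1 stood first and Itgb5 second at E18, and the reverse held at P60, where Itgb5 ran from 42.9% to 65.6% and Itgb1 from 13.4% to 34.2%. Itga9 enters here with the short transcript, which raises its value per length.

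**Figure D3:**
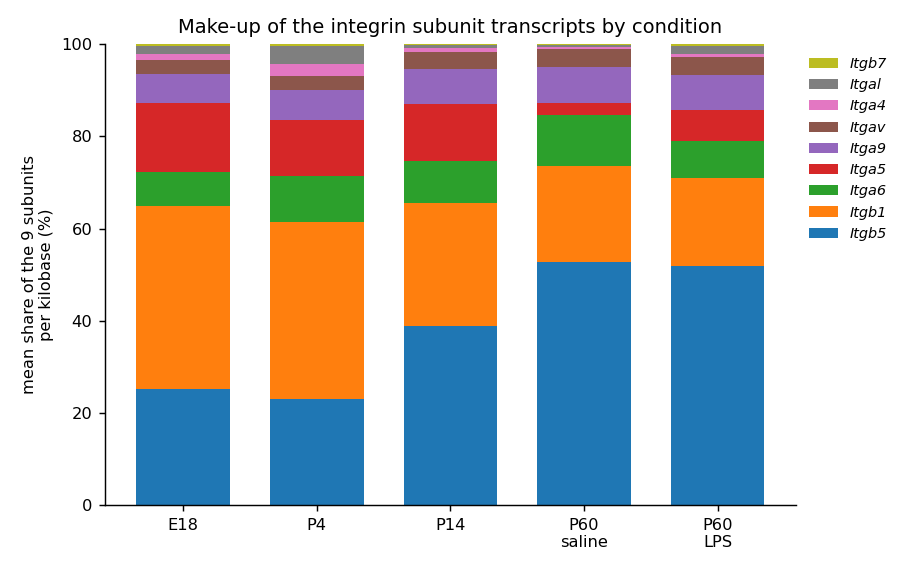
Mean share in percent of each subunit in the summed CPM per kilobase of the 9, by condition. Itgb1 is the largest band at E18 (39.8%) and Itgb5 at P60 after saline (52.7%).

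With LPS at P60 the leukocyte subunit Itgal and the fibronectin receptor subunit Itga5 rose, and the laminin receptor subunit Itga6 fell. 8 of the 9 subunits had enough counts to be tested. Of these 2 rose and 1 fell with LPS in the mean of the sexes, where 14.4% of 10538 genes were called, 10.5% higher and 3.95% lower.

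Itgal ran from 3.63 to 15.9 CPM after saline (median 10.8, n = 12) and from 17.7 to 139 after LPS (46.0, n = 13). No LPS library overlapped a saline library, which held for 1.28% of genes. The log2 change was 2.45 ± 0.31 (edgeR adjusted p = 8.53e-07). It was 2.22 ± 0.43 in libraries titled female (edgeR adjusted p = 0.00105) and 2.69 ± 0.46 in those titled male (9.17e-05). Neutrophil markers rose too: their sum went from a median of 112 CPM (21.6 to 442) to 780 (395 to 6225), and 8 of 8 tested were called. The monocyte sum went from 35.0 (19.1 to 87.3) to 136 CPM (93.1 to 1010), with 5 of 6 called, and the sum of 13 lymphocyte markers from 29.5 (15.1 to 81.0) to 24.0 CPM (16.5 to 50.4), with 1 of the 13, Cd3e, at 0 in every LPS library. Without male LPS libraries 3, 4 and 5, whose neutrophil markers summed to over 2000 CPM, the change in Itgal was 2.07 (edgeR adjusted p = 1.95e-05). The highest Itgal library, female LPS library 5 at 138.5 CPM, had a neutrophil sum of 595 CPM, within the range of the LPS libraries with less Itgal. The part of neutrophils, monocytes and lymphocytes in the rise of Itgal was not tested.

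Itga5 ran from 9.97 to 134 CPM after saline (median 79.2) and from 64.6 to 431 after LPS (146), and the ranges overlapped. It rose by 1.29 ± 0.30 on the log2 scale (edgeR adjusted p = 0.00264). The 3 highest libraries were the same male LPS libraries 3, 4 and 5, at 247, 354 and 431 CPM, all dated 4-9-14. Medians in date order were 76.4, 300.5 and 152 CPM after LPS and 116, 86.3 and 36.4 CPM after saline. Without the LPS libraries dated 4-9-14 the change was 0.88 (edgeR adjusted p = 0.0712), and without the 3 named libraries 0.90 (0.0490). Libraries titled male ran from 33.3 to 98.6 CPM after saline and from 69.8 to 431 after LPS, and those titled female from 9.97 to 134 and from 64.6 to 169.8, with overlap in both. In libraries titled male the change was 1.94 ± 0.45 (edgeR adjusted p = 0.00259), and 1.16 (0.0910) without those 3. In libraries titled female it was 0.65 ± 0.41 (0.523).

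**Figure D4:**
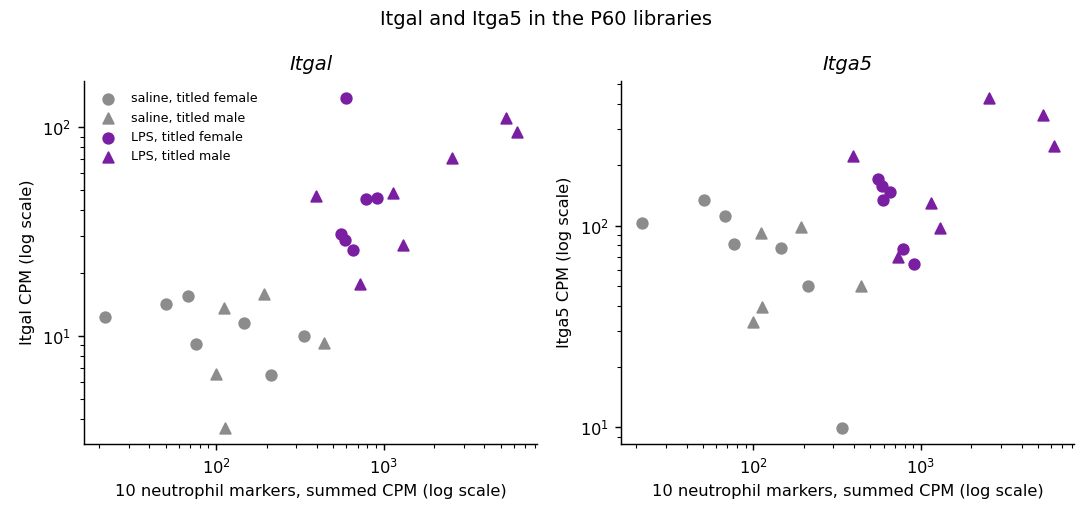
CPM of Itgal (left) and Itga5 (right) against the summed CPM of 10 neutrophil markers in the 25 libraries of P60, both axes log, saline in grey and LPS in purple, circles titled female and triangles male. Every LPS library lies above every saline library for Itgal (lowest LPS 17.7, highest saline 15.9 CPM), while for Itga5 the 2 treatments overlap and the 3 libraries of the highest neutrophil sums are the 3 highest.

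Itga6 went from 155 to 439 CPM after saline (median 321) to 129 to 296 after LPS (232), with wide overlap. It fell by 0.45 ± 0.15 on the log2 scale (edgeR adjusted p = 0.0413), a call that leaving out 1 library ended in 18 of 25 cases and leaving out the saline libraries dated 3-31-14 reduced to -0.19 (0.523). In libraries titled female it fell by 0.71 ± 0.21 (edgeR adjusted p = 0.0440), a call lost in 15 of 25 cases with 1 library left out and kept in 9 of 16 alternatives. In those titled male it was at -0.19 ± 0.22 (0.558). Of 13 microglia markers 0 rose and 5 fell with LPS, and their part in the result was not tested.

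The other 5 tested subunits did not pass, and their ranges overlapped. Itga4, from 3.42 to 37.7 CPM after saline and 10.3 to 53.7 after LPS, was at 0.49 ± 0.26, with a 95% interval from -0.04 to 1.01, and Itga9, Itgav, Itgb1 and Itgb5 lay between -0.06 and 0.03. Itgb5 ran from 461 to 1808 CPM after saline and from 625 to 1776 after LPS, and the 95% interval of its difference ran from -0.37 to 0.36. Itgb7, from 1.51 to 9.25 CPM after saline and 1.18 to 19.8 after LPS, had too few counts for this test. With no low-count filter edgeR gave it 1.83 in males (edgeR adjusted p = 0.0106) and -0.45 in females (0.770), and DESeq2 gave 1.87 (DESeq2 adjusted p = 0.00301) and -0.47 (0.790). Among the 8 tested, in the female libraries 1 subunit rose and 1 fell (5.06% of all genes called, 4.17% higher and 0.892% lower), and in the male libraries 2 rose and 0 fell (19.5% called, 11.9% higher and 7.57% lower).

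Between libraries titled male and female, edgeR called 0 of 9 subunits at E18, P4, P14 and P60 after saline, and 0 of 8 at P60 after LPS, where it called 0.0722%, 0.0433%, 0.0433%, 0.0433% and 0.142% of genes. At an unadjusted p under 0.05 there was 1 subunit at E18 (Itgav), 0 at P4, 0 at P14, 1 at P60 after saline (Itgb7) and 1 after LPS (Itga5). All genes at that threshold numbered 2602, 46, 655 and 1340 of 13853 at the 4 stages and 1710 of 10538 after LPS. For Itga5 after LPS the difference was 0.87 ± 0.41, with a 95% interval from 0.04 to 1.71 (edgeR adjusted p = 0.288). For Itgav at E18 it was -0.58 ± 0.25 (edgeR adjusted p = 0.209), and for Itgb7 at P60 after saline -1.06 ± 0.47 (0.467). Sex by age called 0 of 9 subunits and 0% of genes in edgeR, with 0 subunits at an unadjusted p under 0.05. For sex by LPS edgeR called 0 of 8 subunits and 0.883% of genes. There Itga5 differed by 1.29 ± 0.59, higher in libraries titled male (unadjusted p = 0.0389, edgeR adjusted p = 0.209), and by 0.52 (0.643) without the libraries of high neutrophil markers. DESeq2, which also tests Itgb7, called that gene alone at 2.34 (DESeq2 adjusted p = 0.0370), while edgeR with no low-count filter gave 2.29 (edgeR adjusted p = 0.107).

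Other integrin subunits were taken from a list of 18. Beside the counts of this and the next 2 lists stand the shares of all genes called, 48.3% from E18 to P4, 41.5% to P14, 44.1% to P60 and 14.4% with LPS. Of 16 tested, 7 rose and 0 fell from E18 to P4, 3 rose and 6 fell to P14, and 4 rose and 2 fell to P60. Itgam, the complement receptor subunit, rose by 2.02 ± 0.26 and its partner Itgb2, which also pairs with Itgal, by 1.55 ± 0.22 from E18 to P4. Itgb8, a partner of Itgav, rose by 2.47 ± 0.30 from P14 to P60. Its mean went from 9.22 CPM (0 to 19.0) to 51.2 CPM (1.14 to 102.9). At that step 5 of 7 choroid plexus markers rose and 0 fell, and their part in the rise of Itgb8 was not tested. Of the listed subunits 1 of 10 rose with LPS and 0 fell. This was Itgb3, another partner of Itgav, at 0.69 ± 0.15 (edgeR adjusted p = 9.45e-04).

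Among genes that switch integrins on or tie them to actin, 18 of 32 rose and 2 fell from E18 to P4, 12 rose and 5 fell to P14, and 3 rose and 7 fell to P60. Apbb1ip, which brings Rap1 to talin, rose by 2.23 ± 0.28 at the first step. Zyx, a protein of focal adhesions, fell by 1.19 ± 0.20 at the last. With LPS 4 of 31 rose and 0 fell, where 10.5% of all genes were called higher. They included Vcl (vinculin) at 1.37 ± 0.16 and the kinase Ptk2b at 0.80 ± 0.16.

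Of 26 integrin ligands tested, 8 rose and 2 fell from E18 to P4, 4 rose and 10 fell to P14, and 2 rose and 17 fell to P60. Spp1 and Tnc, osteopontin and tenascin C, which Itga9 binds as a pair with Itgb1, fell by 4.65 ± 0.23 and 4.89 ± 0.34 from P4 to P14. From P14 to P60 the laminin gene Lamc1 fell by 1.72 ± 0.18. Of 9 astrocyte and radial glia markers 0 rose and 9 fell from P4 to P14. The median of their sum was 1498 CPM at P4 and 287 CPM at P14. The part of these cells in the falls of Spp1 and Tnc was not tested. With LPS 5 of 21 ligands rose and 1 fell. Icam1, which Itgal binds, rose by 1.96 ± 0.25, from 354 to 1312 CPM, and Vcam1, which Itga4 binds, by 2.93 ± 0.24, from 187 to 1381 CPM. The endothelial and pericyte marker sum had a median of 1508 CPM after saline and 1058 after LPS, with 1 of 13 markers higher and 5 lower in the mean of the sexes. In libraries titled female 2 were higher and 0 lower, and in those titled male 0 higher and 7 lower. Their part in these results was not tested.

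The genes whose log2 CPM was most like a subunit's over the 60 libraries, among 10142 genes, differed by course. These correlations describe libraries that share stage and depth. Itgb5 was most like 4632428N05Rik (Pearson r = 0.98), Abi3 and the microglial surface gene Tmem119 (both 0.97). Itga9 was most like the phosphatase Inpp5d (0.94), Dock8 (0.94) and the growth factor receptor Csf1r (0.93). For Itga6 they included Cep68 (0.95) and Qk (0.93), and for Itgav they were the glucocorticoid receptor Nr3c1, Mtdh (both 0.94) and Fam134b (0.93). For Itga5 they were the kinase Map2k3 (0.91), the NF-kB subunit Nfkb2 and Dot1l (both 0.89). Itga4 was most like Dab2 (0.83), Topbp1 (0.80) and Smc4 (0.79), and Itgal like Thbs1 (0.87), C3 (0.83) and Plac8 (0.80). The values were lower for Itgb1, with the transferrin receptor Tfrc (0.77), Itga1 and Prex2 (both 0.76), and for Itgb7, with Lilrb3 (0.53), S100a4 (0.52) and Heatr6 (0.51). Among the subunits themselves, Itga6 and Itga9 had r = 0.86 and Itga9 and Itgb5 r = 0.85, while Itga5 and Itgb5 had r = -0.14.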

How the data were processed

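RNA from microglia was extracted with Trizol and made into stranded poly-A libraries, per the labels' protocols. The authors deposited raw counts per transcript for 60 libraries. The submitters' processing notes name CASAVA 1.8.2, edgeR and mm9, and the aligner and counter are not given there, in the labels or in the file. From the counts, 1 row was taken per symbol (the row the table marks as best, otherwise that of most counts), CPM was computed over these genes, and CPM per kilobase from GENCODE vM21 transcript lengths. Tests were edgeR 4.0.16 quasi-likelihood F tests (R 4.3.3, TMM, filterByExpr, robust, two-sided) over 47 libraries of E18 to P60 saline and over 25 libraries of P60, with stages and treatments averaged over sexes at equal weight and p adjusted by Benjamini-Hochberg over all genes tested at a threshold of 0.05. The procedure was tested on simulated counts drawn independently for each library, with no dates, pairs or mixed cell types. That run does not bear on the effect of those on the p-values. Likeness used a prior count of 2. The members and lists were chosen with earlier results of these data known. Alternatives were DESeq2 1.42.0, other scalings, filters, rows and sex labels, a replicate block, and leaving out libraries or dates. All 9 subunits were named with their 3 most alike genes, 1 of which is not reported here. Genes of companion lists were drawn from the up to 3 per comparison and direction with the smallest p and at least 10 CPM. Values of genes singled out beyond that (partners and ligands of a subunit) were picked after they were seen. Same-numbered female and male P4 libraries shared a date in 4 of 4 pairs, and their deviations correlated at 0.415 to 0.580. Each was the other's best match in 4 of 4 pairs. A shared date and a pairing of samples cannot be told apart there. Same-numbered female E18 and male P60 saline libraries, with 0 shared dates, correlated at 0.302 to 0.435 and were best matches in 3 of 3 pairs. At P14 10 of 10 same-numbered female and male pairs shared a date and 9 correlated over 0.1 (median 0.332). In 0 of these 10 was each the other's best match. At E18 0 of 3 pairs shared a date and 2 correlated over 0.1. At P60 after saline 3 of 5 shared a date and 4 correlated over 0.1. For LPS libraries 4 of 6 pairs shared a date and 0 correlated over 0.1. The main tests took no account of pairs or dates, so their p-values treat libraries of a pair or date as independent.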

Additional observations from a re-analysis of the deposited data

Results flagged for a closer look

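In groups of 4 to 10 libraries of 1 title sex, 81 tests of the most extreme library (Dixon's criterion at 95%) picked out 6 values, and chance picks about 1 in 20. Itga5 stood at 616 CPM in female P14 library 1, with the next library at 403. Itga9 was at 122 CPM in female P14 library 8, next to 94.9. Itgal was at 139 CPM in female LPS library 5, next to 46.0, and this library is part of the rise in Itgal with LPS. Itgav was at 93.5 CPM in female saline library 6, next to 179.8, and Ttr took over 10% of that library's counts. Itgb5 was low at 309 CPM in female P4 library 1, next to 474. Itgb7 was at 5.89 CPM in male saline library 5, next to 2.17.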

How the results depend on the processing

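Itgal kept its calls in every alternative run: 10 of 10 from E18 to P4, 13 of 13 at each of the next steps and 16 of 16 with LPS. The weakest calls were those of Itga6 with LPS, kept in 7 of 16 alternatives, and of Itgb1 from E18 to P60, kept in 2 of 10 and reversed to -0.091 with library totals only. Itga4 from E18 to P60 (-0.49, edgeR adjusted p = 0.0631) passed in 7 of 10, for example at -0.67 with DESeq2 (DESeq2 adjusted p = 0.00875). Libraries after LPS held 804990 to 1401251 counts, and Itgb7 did not pass the low-count filter there. The causes of these changes were not tested.

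With LPS the 3 called subunits became 1 without the LPS libraries dated 4-9-14. In females the 2 called became 1 with no low-count filter, with the row of most counts, with the replicate block, without the LPS libraries of 4-9-14 or 4-10-14 and without the saline libraries of 3-27-14 or 3-31-14, and 1 to 2 when single libraries were left out. In males the 2 became 1 without the LPS libraries of 4-9-14 and without those of high neutrophil markers. The 0 called for sex by LPS became 1 with DESeq2. The replicate block also passed Itga6 from P14 to P60 (0.44, edgeR adjusted p = 0.0375). It lost Itga6 with LPS (-0.43, edgeR adjusted p = 0.0870) and Itgb1 from E18 to P60 (0.28, 0.0671). The numbers were not shown to pair libraries.

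The rest are counts of all genes called. For sex at E18 the 10 genes became 503 with DESeq2, 0 with sex from the characteristic, 6 with the replicate block, without high Ttr or without high neutrophil markers, 5 with date as a block, and 6 to 2475 with single libraries left out (2475 without male E18 library 2). For sex at P4 the 6 became 0 with the characteristic. For sex at P60 after saline the 6 became 26 with DESeq2, 0 with the characteristic, 11 with date and 6 to 35 with single libraries left out. Sex by age went from 0 to 486 (without male E18 library 2), with 1723 genes at an unadjusted p under 0.05 in edgeR. For LPS in females the 533 became 301 without the LPS libraries of 4-10-14 and 272 without the saline libraries of 3-31-14. For LPS in males the 2054 became 1285 without high neutrophil markers, 1327 without the LPS libraries of 4-9-14, 1020 without the saline libraries of 4-3-14 and 1312 to 2487 with single libraries left out. For sex after LPS the 15 became 144 with DESeq2, 0 with the characteristic, 6 with the replicate block, 45 without high Ttr, 8 without high neutrophil markers, 59 with date and 7 to 45 with single libraries left out. For sex by LPS the 93 became 556 with DESeq2, 0 with the characteristic, 482 without high Ttr, 9 without high neutrophil markers, 369 with date and 0 to 482 with single libraries left out. From P4 to P14 the split of higher and lower calls went from 2856 and 2888 to 2184 and 3634 with DESeq2 size factors and to 1376 and 5175 with library totals. Library totals also moved it from 4354 and 4827 to 2797 and 6649 from E18 to P60, and from 1102 and 416 to 912 and 785 with LPS.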
